A study of Homo sapiens with 4 samples.

Results

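Long intergenic noncoding RNAs (symbols of the form LINC and a number) and microRNA host transcripts (symbols of the form MIR, a number and HG) were described in MRC5 cells, fibroblasts from human fetal lung. Members were chosen by symbol and by level: all symbols of either form whose FPKM averaged 0.5 or more across all 4 libraries. FPKM counts sequenced fragments relative to transcript length and library size. The rule kept 101 of 902 matching symbols, of 26255 genes listed in all, and 90 of the 101 were LINC-numbered and 11 were microRNA hosts. Of the other 801 symbols, 568 were listed at 0 in all 4 libraries. The measured FPKM thus helped choose the members, and a transcript high in only 1 group had an easier way over the minimum.

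The study set cells treated with microRNAs (labelled miRs, 2 libraries) against cells with the treatment label "no" (control, 2 libraries), all wild type and all at 48 h by their titles. The microRNAs are not named in the labels. The series title sets NC-miR against miRs, so what the control cells received is not settled. The labels do not state whether the 2 replicates of a group were grown separately, and every p-value below covers no more than library-to-library spread, possibly technical.

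Long noncoding RNAs are transcribed by RNA polymerase II, usually spliced and polyadenylated like messenger RNAs, but give no long protein. Some act in the nucleus on neighbouring genes, others bind proteins or microRNAs in the cytoplasm, and many have no known role. A microRNA host transcript holds 1 or more microRNA hairpins, which the enzyme DROSHA cuts out before DICER1 releases the mature strand. The library kit selects polyadenylated RNA, so the values below are those of the host transcripts and not of the mature microRNAs.

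The mature microRNAs encoded in the hosts are shown first, because they are what each host is named for and because their seeds tell which hosts encode microRNAs of 1 family. All 11 hosts held at least 1 mature sequence in RefSeq (GRCh38.p14), 38 sequences from 21 microRNA genes in all. The arm shown for each was chosen as the one usually taken as the main product. No sequence is shown for MIR18A, MIR19A, MIR19B1, MIR92A1, MIR145 and MIR10526. Capitals mark the seed, bases 2 to 8 from the 5′ end, which sets most of the pairing with target RNAs.
let-7a-5p in MIR100HG, chromosome 11: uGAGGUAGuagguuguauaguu
miR-4458 in MIR4458HG, chromosome 5: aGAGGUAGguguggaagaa
miR-100-5p in MIR100HG, chromosome 11: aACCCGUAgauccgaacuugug
miR-125b-5p in MIR100HG, chromosome 11: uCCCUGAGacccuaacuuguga
miR-195-5p in MIR497HG, chromosome 17: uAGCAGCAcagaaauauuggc
miR-497-5p in MIR497HG, chromosome 17: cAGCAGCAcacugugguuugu
miR-503-5p in MIR503HG, chromosome X: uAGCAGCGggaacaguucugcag
miR-17-5p in MIR17HG, chromosome 13: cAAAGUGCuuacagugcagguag
miR-20a-5p in MIR17HG, chromosome 13: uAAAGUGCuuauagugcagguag
miR-22-3p in MIR22HG, chromosome 17: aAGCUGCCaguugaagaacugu
miR-31-5p in MIR31HG, chromosome 9: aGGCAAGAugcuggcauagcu
miR-143-3p in MIR143HG, chromosome 5: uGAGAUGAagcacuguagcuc
miR-155-5p in MIR155HG, chromosome 21: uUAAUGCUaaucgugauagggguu
miR-210-3p in MIR210HG, chromosome 11: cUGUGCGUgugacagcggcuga
miR-762 in MIR762HG, chromosome 16: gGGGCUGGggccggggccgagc

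Among those shown, let-7a and miR-4458 have the same seed, as do miR-195 and miR-497, and miR-17 and miR-20a. Among those left out, miR-19a-3p and miR-19b-3p, both of MIR17HG, also have the same seed. The seed of miR-503 differs from that of miR-195 in its last base only. The files list 20 of the 21 microRNA genes as rows of their own, and 19 of them stood at 0 in all 4 libraries. The exception was MIR210, listed at 0 in miRs replicate 1 and control replicate 1 and at 23.4 FPKM in miRs replicate 2 and 23.5 FPKM in control replicate 2. A gene so short reaches a high FPKM with very few fragments, so these values carry no comparison.

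Depth could not be read from the files, since FPKM does not give the number of fragments. Between 11622 and 11781 genes per library reached 1 FPKM. Of 10 fibroblast markers all 10 were listed and passed 0.5 FPKM, with a summed level of 6702 and 11558 FPKM in miRs and 9978 and 10108 FPKM in control. Collagens make up much of that sum. Over the 10 markers the median log2 difference, on the scale defined below, was −0.68. Of the 10, 5 were below both controls in both miRs libraries, 0 above and 0 called. Shares over all tested genes were 29.5% below and 29.2% above, with a median of −0.00. DCN, the matrix proteoglycan decorin, was at 352 and 419 FPKM in miRs, against 963 and 1223 FPKM in control. Of 5 endothelial and 5 blood markers, 1 each passed that level, the receptor TEK and the lysosomal protein CD68. Of 6 epithelial markers EPCAM alone did, at 1.07 and 1.61 FPKM in miRs against 0 and 0.228 FPKM in control. KRT14 was at 1.60 FPKM in miRs replicate 1 only and CDH1 at 0.0356 FPKM in control replicate 1 only. KRT5, SFTPC and SCGB1A1 were listed at 0 throughout. The part of other cell types in the results was not tested. In RNA of a whole culture, fewer cells with a transcript and less of it per cell cannot be told apart.

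Most members were scarce. Their mean levels ran from 0.523 to 133 FPKM with a median of 1.67, and 29 lay under 1 FPKM, 56 between 1 and 5 and 16 at 5 or more. The members just inside the minimum were LINC01355, LINC00920 and LINC00595, with means of 0.523, 0.55 and 0.553 FPKM. Those just outside were LINC01336, LINC01271 and LINC00997, with means of 0.498, 0.496 and 0.493 FPKM. The 10 most abundant members made up 67.6% and 70.9% of the summed member FPKM in the miRs libraries and 72.0% and 71.8% in the controls. All members together came to between 0.109% and 0.128% of the FPKM in a library.

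The group is not purely noncoding as annotated today. RefSeq carries all 101, 74 under the symbol used in the files and 27 as an older name of another symbol. Of these, 8 are now annotated as protein-coding and 93 as long noncoding RNAs. The coding ones are LINC00094 (now BRD3OS), LINC00116 (MTLN, the mitochondrial micropeptide mitoregulin), LINC00341 (SYNE3, the nuclear envelope protein nesprin-3), LINC00493 (SMIM26, a small mitochondrial membrane protein), LINC00672 (LASP1NB), LINC00998 (SMIM30, a small membrane protein), LINC01279 (CCDC80, a secreted matrix protein) and LINC01420 (NBDY, a microprotein of the messenger RNA decapping complex). For LINC00341 and LINC01279 the files also list the coding gene in a row of its own. Those 2 levels are uncertain, since fragments of 1 locus may have been divided between both rows. LINC00969 is now MIR570HG and holds miR-570, and LINC01057 holds miR-378g. By their symbols both were counted among the LINC-numbered members and not among the hosts.

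In miRs against control, the members moved in both directions and no member passed the test. In limma over the 12825 genes averaging 0.5 FPKM or more, 0 of the 101 members had an adjusted p under 0.05, where the share over all genes was 0.211% (27 genes; 0.0936% higher in miRs and 0.117% lower). The smallest adjusted p of a member was 0.0609. At an unadjusted p under 0.05 there were 18 members (23.4% of all genes were), 6 higher in miRs (5.94% of members, where all genes gave 10.9%) and 12 lower (11.9%, where all genes gave 12.5%). Both miRs libraries lay above both controls for 21 members (20.8%, against a background of 29.2%) and below both for 29 (28.7%, against 29.5%). The groups overlapped for the other 51. The shares of lower members were close to the background, and the median log2 difference was −0.05 over the members and −0.00 over all tested genes. Differences are on the log2(FPKM + 1) scale, miRs minus control, which understates the change of scarce transcripts, and 74 of the 101 were under 0.5 in size.

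The call depended on single libraries. Without miRs replicate 1, 9 members were called, 2 higher and 7 lower, where 11.3% of all genes were. Without miRs replicate 2, 24 were called, 9 higher and 15 lower, where 28.1% of all genes were. Then the lone miRs library is assumed to vary as little as the controls do. Without either control, 0 members were called.

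**Figure D1:**
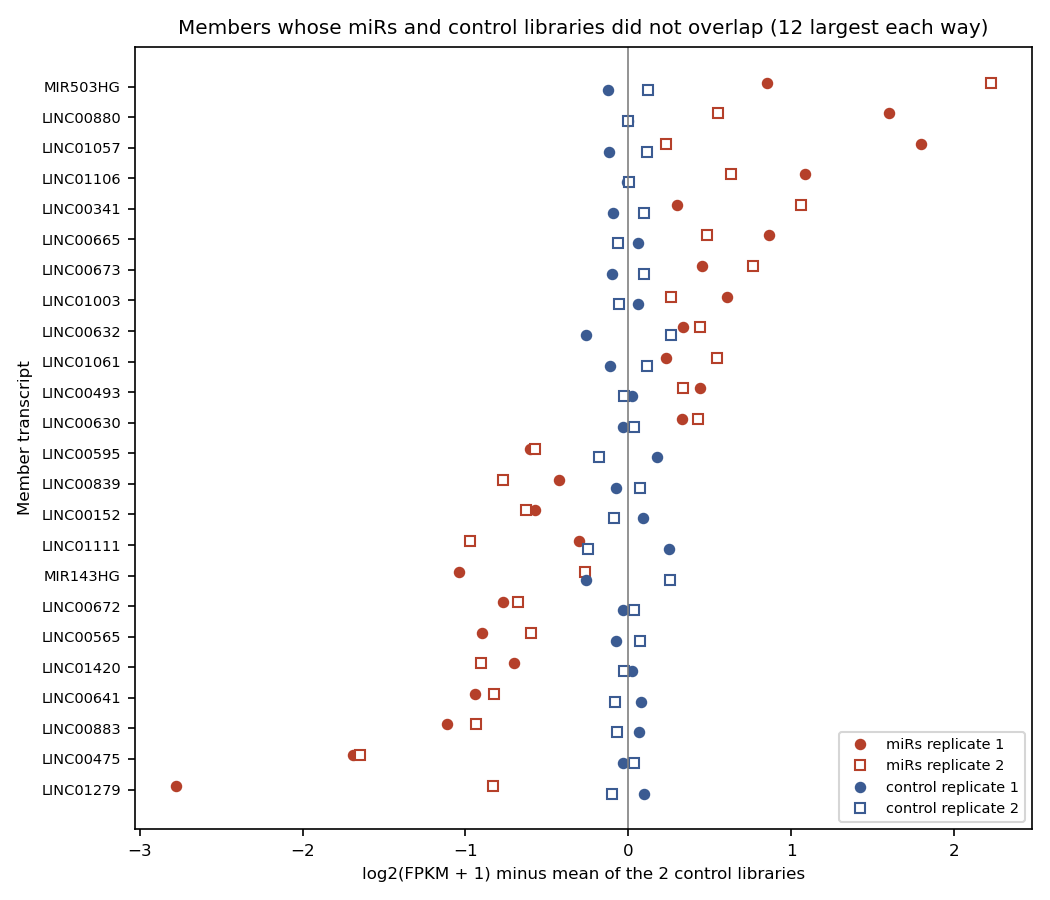
Members whose 2 miRs and 2 control libraries did not overlap, the 12 with the largest difference each way, as log2(FPKM + 1) of each library minus the mean of the controls. Red points are miRs libraries and blue points controls, filled for replicate 1 and open for replicate 2. In LINC00475 both miRs libraries sit together near −1.7, whereas in MIR503HG and LINC01279 they lie far apart.

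Among the hosts, MIR503HG had the largest difference. This transcript, also known as H19X, is induced by TGF-beta in fibroblasts and holds miR-503. It stood at 30.7 and 81.5 FPKM in the miRs libraries, against 15.2 and 18.2 FPKM in the controls. Both miRs libraries were above both controls, but they were 2.65-fold apart from each other. The log2 difference was 1.54 ± 0.47 (SE; adjusted p = 0.161 in limma), 2.23 without miRs replicate 1 and 0.85 without miRs replicate 2.

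MIR22HG and MIR210HG were lower in both miRs libraries with little spread. MIR22HG, host of miR-22, was at 20.2 and 22.2 FPKM in miRs, against 29.1 and 30.3 FPKM in control (log2 difference −0.47 ± 0.13 SE, adjusted p = 0.138 in limma). MIR210HG, whose microRNA is a well-known product of the hypoxia response, was at 3.51 and 2.85 FPKM in miRs, against 5.24 and 4.80 FPKM in control (−0.53 ± 0.16, adjusted p = 0.157 in limma). Neither passed. Of 14 hypoxia response genes tested, 7 were above both controls in both miRs libraries and 2 below. All tested genes gave shares of 29.2% above and 29.5% below. Of the 14, 0 were called, and their median difference was 0.13. The 4 of smallest p went both ways. NDRG1, a stress-induced protein, was at 85.2 and 115 FPKM in miRs against 39.3 and 43.8 FPKM in control, and ANKRD37 was at 3.53 and 2.76 FPKM in miRs against 1.01 and 1.30 FPKM in control. The 2 below were ADM, a vasodilator peptide, at 43.4 and 72.6 FPKM in miRs against 116 and 147 FPKM in control, and BNIP3L, a mitophagy receptor, at 21.2 and 33.3 FPKM in miRs against 46.6 and 48.5 FPKM in control.

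MIR143HG, now called CARMN, is a smooth muscle transcript that holds miR-143 and miR-145. It was at 0.10 and 0.883 FPKM in miRs, against 0.891 and 1.70 FPKM in control. The groups are separated only by 0.883 against 0.891 FPKM, and the difference of −0.65 ± 0.35 (SE) had an adjusted p of 0.326 in limma. The fibroblast markers had the median of −0.68 given above, where that over all tested genes was −0.00. Of 14 contractile genes tested, 12 were below both controls in both miRs libraries (85.7%, against 29.5% of all genes). Above both was 1 (7.14%, against 29.2%), 0 were called, and the median difference was −1.10. CNN1, the smooth muscle calponin, was at 11.2 and 17.5 FPKM in miRs, against 104 and 67.3 FPKM in control.

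MIR155HG and MIR31HG were high in 1 miRs library only. MIR155HG, a transcript induced in activated immune cells, was at 4.24 and 1.19 FPKM in miRs, against 1.87 and 2.1 FPKM in control. MIR31HG was at 9.79 and 4.2 FPKM in miRs, against 6.58 and 4.39 FPKM in control. In both, miRs replicate 1 was above and miRs replicate 2 below both controls, so the sign of the difference depends on which miRs library is kept. MIR31HG overlaps the interferon gene IFNE on the same strand, so its level is uncertain.

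The remaining hosts showed no separation of size. MIR100HG, which holds miR-100, let-7a-2 and miR-125b-1, was at 46.8 and 29.5 FPKM in miRs, against 44.9 and 47.2 FPKM in control. It had the highest mean of the hosts over all 4 libraries, 42.1 FPKM against 36.4 FPKM for MIR503HG, whereas within miRs MIR503HG had the higher mean, 56.1 FPKM against 38.2 FPKM. MIR17HG, the MYC-responsive host of the miR-17 cluster, was at 1.12 and 0.697 FPKM in miRs, against 0.426 and 0.713 FPKM in control. MIR4458HG was above both controls by a small margin, at 1.75 and 1.63 FPKM in miRs against 1.43 and 1.42 FPKM in control. MIR497HG, at 1.12 and 3.42 FPKM in miRs against 3.19 and 1.75 FPKM in control, and MIR762HG, at 0.999 and 1.44 FPKM in miRs against 1.40 and 0.589 FPKM in control, overlapped widely. The locus of MIR497HG overlaps C17orf49 on the other strand, at 21.7 and 33.0 FPKM in miRs against 42.3 and 42.0 FPKM in control. That of MIR762HG likewise overlaps BCL7C, at 30.8 and 41.4 FPKM in miRs against 53.7 and 53.6 FPKM in control. As the strand setting of the counting is not given, the levels of both hosts are uncertain. Of the hosts whose microRNAs share the let-7 seed, MIR4458HG was above both controls and MIR100HG overlapped them. Over the 11 hosts the median difference was 0.15, with 2 above both controls (18.2%, against 29.2% of all genes) and 3 below (27.3%, against 29.5%), and it was −0.26 without miRs replicate 1.

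**Figure D2:**
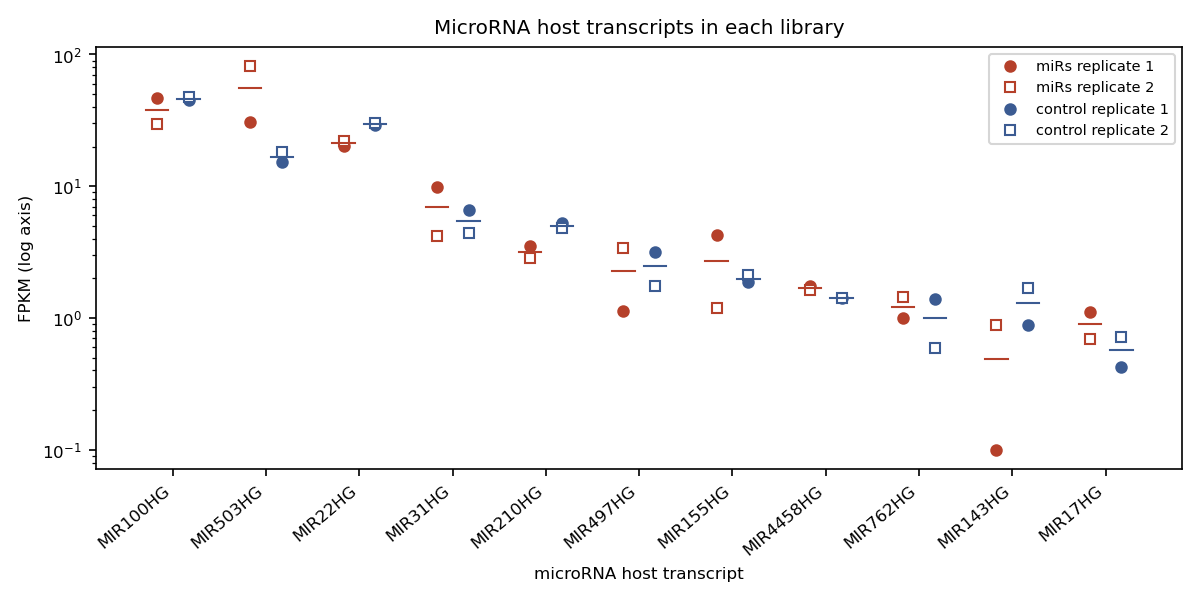
FPKM of the 11 microRNA host transcripts on a log axis, miRs libraries in red left of the controls in blue. Filled points are replicate 1, open points replicate 2 and bars the group means. MIR503HG is above and MIR22HG and MIR210HG are below their controls in both miRs libraries, while MIR155HG and MIR31HG are above them in miRs replicate 1 only.

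The enzymes and Argonaute proteins that process microRNAs differed little. Of 13 tested genes 3 were above both controls in both miRs libraries (23.1%, against 29.2% of all genes). Below both were 3 (23.1%, against 29.5%), 0 were called, and the median difference was 0.04. XPO5, which exports the hairpins from the nucleus, was at 19 and 13.8 FPKM in miRs, against 10.7 and 10.9 FPKM in control. AGO1, an Argonaute protein, was at 4.45 and 5.10 FPKM in miRs, against 7.0 and 7.47 FPKM in control.

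Among the LINC-numbered members LINC00475 was the most depleted in proportion. Its levels were 0.287 and 0.328 FPKM in miRs, against 3.06 and 3.26 FPKM in control, 10.3-fold lower in the means. Both groups were tight and far apart, at a log2 difference of −1.67 ± 0.16 (SE), yet the adjusted p was 0.0609 in limma. It was the 1 member called when the replicate number was taken as a block (adjusted p = 0.0494 in limma). LINC00475 lies on chromosome 9 and GENCODE 29 lists it as a transcribed pseudogene, so its level is uncertain where it shares sequence with its parent gene.

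On the log2(FPKM + 1) scale LINC00883, LINC00641 and LINC01420 had the next largest differences after LINC01279 and LINC00475, although scarcer members such as LINC00672, 4.82-fold lower in the means, were lower in proportion. LINC00883, now DUBR, is known in mouse muscle for a role in myoblast differentiation. It was at 1.47 and 1.79 FPKM in miRs, against 4.59 and 4.08 FPKM in control (log2 difference −1.02 ± 0.16 SE, adjusted p = 0.0805 in limma). LINC00641 was at 2.01 and 2.26 FPKM in miRs, against 5.10 and 4.46 FPKM in control (−0.88 ± 0.15, adjusted p = 0.0889 in limma).

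LINC01420, which encodes the NoBody microprotein, was at 27.9 and 24.2 FPKM in miRs, against 46.9 and 45.2 FPKM in control. The miRs libraries were 1.77-fold lower in the means, at a log2 difference of −0.80 ± 0.14 (SE; adjusted p = 0.0849 in limma). The locus overlaps SPIN3 on the other strand, which was far scarcer, at 2.46 and 2.57 FPKM in miRs against 2.75 and 3.68 FPKM in control. The strand setting of the counting is not given in the sources used here, so the shares of such neighbours in a level are not known.

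LINC00152, now CYTOR for cytoskeleton regulator, was the most abundant member. It was at 107 and 103 FPKM in miRs, against 170.4 and 150.4 FPKM in control, 1.52-fold lower in the means (log2 difference −0.60 ± 0.13 SE, adjusted p = 0.102 in limma). It took 20.2% and 17.1% of the summed member FPKM in miRs and 26.1% and 24.0% in control. LINC00152 has a near copy in the genome, so its level is uncertain.

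LINC01279 had the largest difference among lower members, −1.80 ± 0.65 (SE; adjusted p = 0.202 in limma), with miRs libraries 5.93-fold apart. It was at 1.37 and 8.10 FPKM in miRs, against 16.3 and 14.1 FPKM in control. The row of CCDC80, the gene it is now part of, was at 74.0 and 139 FPKM in miRs, against 188 and 178 FPKM in control. In both rows miRs replicate 1 was the lowest library.

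The other lower members within the 12 largest were scarce. LINC00565, now SWINGN for its binding to the SWI/SNF chromatin remodeller, was at 1.14 and 1.63 FPKM in miRs, against 2.78 and 3.18 FPKM in control. LINC00672 was at 0.169 and 0.241 FPKM in miRs, against 0.941 and 1.04 FPKM in control. LINC00839 was at 2.35 and 1.64 FPKM in miRs, against 3.28 and 3.73 FPKM in control. These 3 had clear gaps between the groups and adjusted p of 0.117, 0.112 and 0.167 in limma. LINC00595 was at 0.220 and 0.251 FPKM in miRs, against 1.10 and 0.642 FPKM in control. LINC01111 was at 0.771 and 0.117 FPKM in miRs, against 1.60 and 0.840 FPKM in control, and its groups nearly touched.

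Members higher in both miRs libraries numbered 21, against 29 lower ones. The miRs libraries were over 2-fold apart for 3 of those 21 (14.3%) and for 4 of those 29 (13.8%). LINC00665, for which a micropeptide has been described, was at 5.22 and 3.78 FPKM in miRs, against 2.57 and 2.27 FPKM in control (log2 difference 0.67 ± 0.19 SE, adjusted p = 0.145 in limma). LINC00673 was at 2.05 and 2.79 FPKM in miRs, against 1.08 and 1.39 FPKM in control (0.61 ± 0.19, adjusted p = 0.167 in limma). LINC01106 was at 1.48 and 0.809 FPKM in miRs, against 0.166 and 0.174 FPKM in control (0.86 ± 0.22, adjusted p = 0.129 in limma). All 3 had groups well apart, and the controls of LINC01106 lay under 0.5 FPKM.

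LINC00493, the transcript of SMIM26, was higher at a high level. It was at 47.8 and 44.5 FPKM in miRs, against 35.7 and 34.5 FPKM in control, 1.32-fold higher in the means (log2 difference 0.39 ± 0.12 SE, adjusted p = 0.167 in limma). LINC00341, part of SYNE3, was at 3.49 and 6.59 FPKM in miRs, against 2.41 and 2.90 FPKM in control. The SYNE3 row itself was at 4.88 and 8.01 FPKM in miRs, against 4.33 and 5.64 FPKM in control, where the groups overlap.

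LINC00632, the precursor of the circular RNA CDR1as that binds miR-7, was at 1.17 and 1.34 FPKM in miRs, against 0.434 and 1.06 FPKM in control. A circular RNA has no poly(A) tail, so this kit would measure the linear transcript. LINC01003, LINC01061 and LINC00630 had differences of 0.43, 0.39 and 0.38, all under 1.5 FPKM in every library. The groups of these 4 members were separate, but narrowly so for LINC00632 and LINC01061. For LINC01061 the lowest miRs level was 0.992 FPKM and the highest control 0.841 FPKM.

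**Figure D3:**
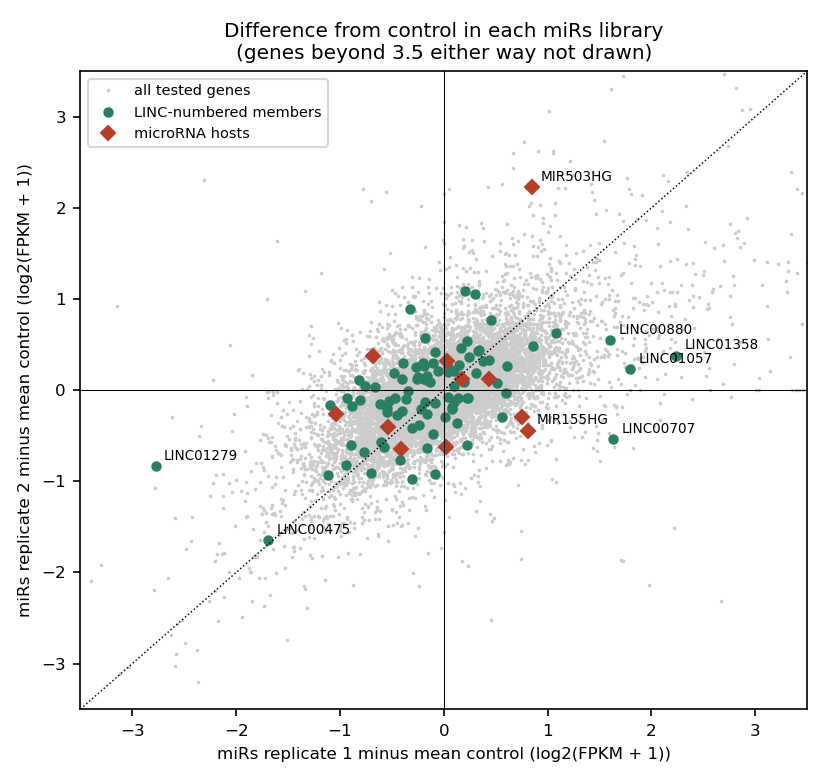
Difference of each miRs library from the mean of the controls in log2(FPKM + 1), miRs replicate 1 on the horizontal and miRs replicate 2 on the vertical axis. Grey points are the tested genes within the range of the axes, and genes with larger differences are not drawn. Green points are LINC-numbered members and red diamonds microRNA hosts, and the dotted line marks equal differences. LINC00475 lies on the line, whereas LINC01057, LINC01358, LINC00880 and LINC00707 lie far to the right of it and MIR503HG above it.

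Several members stood apart in 1 miRs library. For all genes the share that did so, in either direction, was not counted. Chosen after their values were seen, except for MIR155HG, MIR503HG, LINC00880 and LINC01057, 5 were over 2-fold above the other 3 libraries in miRs replicate 1 (LINC00707, LINC00880, LINC01057, LINC01358 and MIR155HG) and 2 in miRs replicate 2 (LINC00173 and MIR503HG). LINC01057, now SLC44A3-AS1, was at 6.60 and 1.57 FPKM in miRs, against 1.02 and 1.38 FPKM in control. LINC00707 was at 5.2 and 0.382 FPKM in miRs, against 1.17 and 0.842 FPKM in control. LINC01358 was at 6.04 and 0.940 FPKM in miRs, against 1.22 FPKM in control replicate 1 and a listing at 0 in control replicate 2. LINC00880 was at 2.03 and 0.465 FPKM in miRs and listed at 0 in both controls. Among these 4 the groups were separate for LINC01057 and LINC00880 only.

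The miRs libraries also differed from each other over whole lists of genes. The 20 interferon response genes were all above both controls, where 29.2% of all genes were. Their median difference from control was 6.69 in the first miRs replicate and 4.25 in the other. For the 14 tested NF-kB feedback genes the medians were 0.73 (miRs replicate 1) and −0.42 (miRs replicate 2), and 13 of them had their higher miRs level in replicate 1. Of the 14, 2 were above both controls in both miRs libraries (14.3%, against 29.2% of all genes). Below both were 3 (21.4%, against 29.5%), and the median was 0.17. No gene of either list was called. The summed level of the fibroblast markers above was lower in miRs replicate 1, as was that of the hosts of small nucleolar RNAs (1143 and 1741 FPKM in miRs, against 1341 and 1367 FPKM in control). The part of any of these lists in the members named was not tested.

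In the other direction 6 members were over 2-fold below the other 3 libraries in miRs replicate 1 (LINC00938, LINC01137, LINC01279, LINC01481, LINC01604 and MIR143HG) and 5 in miRs replicate 2 (LINC00327, LINC00707, LINC01060, LINC01081 and LINC01111). The miRs libraries were over 2-fold apart for 25 members (24.8%), against 11% of all genes, and the controls for 10 (9.90%), against 3.21%. Over all genes this share was larger for scarce transcripts. At 0.5 to 1 FPKM the miRs libraries were that far apart for 31.0% of members and 30.7% of all genes. At 1 to 5 FPKM they were for 12 of 56 members (21.4%), against 15.7% of all genes. At 5 FPKM or more they were for 4 of 16 members (25.0%), against 6.83% of all genes. Those 4 were LINC01279, LINC01604, MIR31HG and MIR503HG.

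Of the 10 most abundant members 6 had separate groups and are described above, as is MIR100HG, and the other 3 overlapped. LINC00657, better known as NORAD, which binds Pumilio proteins and guards chromosome stability, was at 40.4 and 77.8 FPKM in miRs, against 73.2 and 70.4 FPKM in control. Only miRs replicate 1 was low. LINC00998 was at 26.8 and 22.7 FPKM in miRs, against 24.5 and 24.0 FPKM in control. LINC01578, now CHASERR, which restrains its neighbour CHD2, was at 10.3 and 13.7 FPKM in miRs, against 13.3 and 16.2 FPKM in control. LINC01578 was lowest in miRs replicate 1 and highest in control replicate 2.

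Members known from p53 and lung were scarce. LINC01021, now PURPL, a p53-induced transcript, was at 0.653 and 0.839 FPKM in miRs, against 0.636 and 0.572 FPKM in control, a narrow separation. Of 15 p53 target genes 6 were above both controls in both miRs libraries and 2 below, 0 were called, and the median difference was 0.16. The shares over all tested genes were 29.2% above and 29.5% below. Of the 4 p53 target genes of smallest p, MDM2, BBC3 and FAS were above both controls. CDKN1A was below both, at 197 and 310 FPKM in miRs against 527 and 529 FPKM in control. LINC01081, which lies beside the lung mesenchyme factor FOXF1, was at 0.829 and 0.316 FPKM in miRs, against 1.54 and 0.646 FPKM in control, which overlap. LINC01021 and LINC01081 were named after their values were seen.

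Other noncoding classes were set beside the members in the same fit. Antisense genes, by their symbols, numbered 260 at 0.5 FPKM or more, of which 51 were above both controls (19.6%) and 97 below (37.3%), with a median difference of −0.11 and 0 called. The backgrounds over all genes are the 29.2% and 29.5% above. Hosts of small nucleolar RNAs went the other way in their counts, with 8 of 18 above both controls, 2 below, a median of 0.18 and 0 called. SNHG1 was at 70.6 and 69.3 FPKM in miRs, against 44.6 and 43.2 FPKM in control. Of 15 tested named long noncoding RNAs, 4 were above and 6 below, with a median of −0.15 and 0 called. MALAT1, the abundant nuclear transcript, was at 18.8 and 18.7 FPKM in miRs, against 27.9 and 26.6 FPKM in control. Whether these classes differ from one another was not tested.

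**Figure D4:**
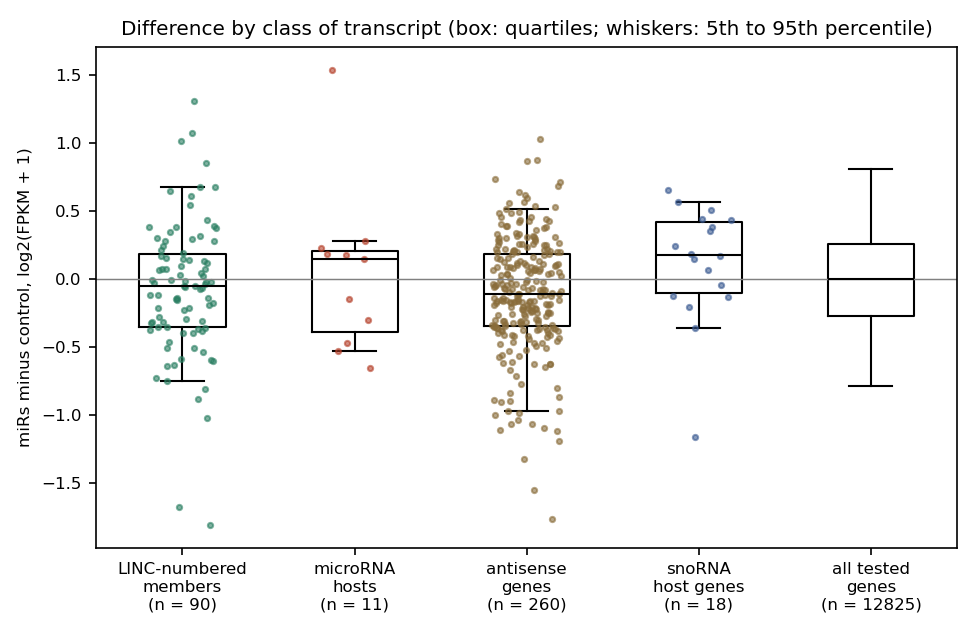
Log2 differences (miRs minus control, log2(FPKM + 1)) of the members and of other classes, 1 point per gene, with boxes for the quartiles and whiskers from the 5th to the 95th percentile. The medians are −0.05 for LINC-numbered members, 0.15 for hosts, −0.11 for antisense genes, 0.18 for hosts of small nucleolar RNAs and −0.00 for all genes.

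Position and structure were taken from GENCODE 29, which holds 91 of the members on a later build than that of the files. Of these, 74 are spliced in their longest transcript and 17 have 1 exon. The spliced ones were above both controls in 21.6% and below in 32.4%, with a median difference of −0.04. The 17 with 1 exon were above in 11.8% and below in 23.5%, with a median of −0.14. Over all tested genes the shares were 29.2% above and 29.5% below, and the difference between the spliced and 1-exon members was not tested. Tested genes overlapped 16 members on the other strand and 5 on the same strand. Across 69 members with a tested nearest protein-coding gene, 41 had a difference of the same sign as that gene (Pearson's r = 0.14, Spearman's rho = 0.16). The points share the same 4 libraries, so this is a description.

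A smaller set of 12 members starts head to head with a protein-coding gene, on opposite strands and with starts at most 1000 bases apart. In 4 of the 12 pairs the differences had the same sign, and across pairs Pearson's r was −0.59 and Spearman's rho −0.50, a description over 12 points of shared libraries. MIR22HG had a difference of −0.47 and its partner WDR81 one of 0.54. WDR81 was at 7.42 and 7.29 FPKM in miRs, against 4.73 and 4.74 FPKM in control (adjusted p = 0.115 in limma), and the loci overlap. LINC01137 had a difference of −0.53, at 0.663 and 1.72 FPKM in miRs against 1.68 and 2.53 FPKM in control. Its partner ZC3H12A, an RNase that degrades cytokine messenger RNAs, was at 6.72 and 7.24 FPKM in miRs, against 2.68 and 3.12 FPKM in control (difference 1.03, adjusted p = 0.0738 in limma). The partners of LINC01534 and LINC01547, ZNF567 and FAM207A, both had a difference of 0.34, against −0.31 and −0.36 for the members.

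**Figure D5:**
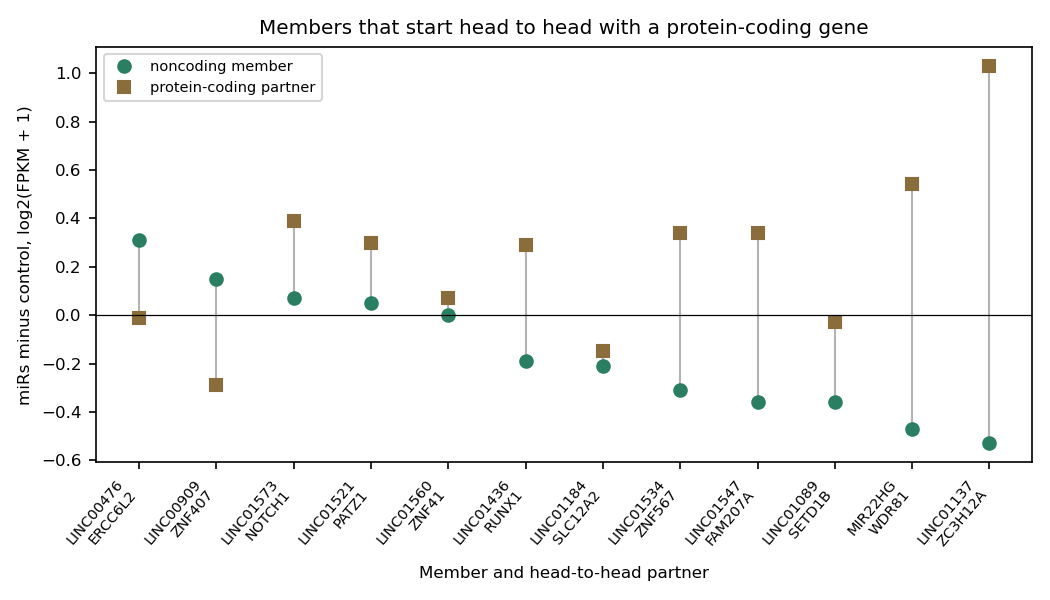
Log2 difference (miRs minus control, log2(FPKM + 1)) of 12 members, green circles, and of the protein-coding gene that starts head to head with each, brown squares. Pairs are ordered by the member's difference, and the partners of MIR22HG and LINC01137, at 0.54 and 1.03, lie highest.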

How the data were processed

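The authors deposited gene-level FPKM for each library, per the file headers. Per the submitters' processing notes, build hg19 was used with Cuffdiff 2.2.1, SAMtools 0.1.18, Bowtie2 2.2.8 and TopHat2 2.1.1, without stated roles. For the annotation, strand setting and library scaling, nothing is given in the sources used here. Libraries came from the TruSeq Stranded mRNA kit, per the labels' protocols.

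The members and lists were chosen with earlier results of these data known. The test was limma 3.58.1 (R 4.3.3) with a variance trend, 2-sided, fitted to log2(FPKM + 1) of the 12825 genes averaging 0.5 FPKM or more, so that every member was tested. Adjustment was by Benjamini-Hochberg over those genes at 0.05, and 2 residual degrees of freedom remained. In data simulated for miRs against control over 12825 genes, calls were made for 4 of 100 genes with a log2 change of 1, for 73 of 100 with one of 2 and for 8 of 12625 without a change. The simulation gave both groups the same variance. In the data the miRs libraries were over 2-fold apart for 11.0% of all genes and the controls for 3.21%, so these rates may not hold there.

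Named were all hosts, the 12 largest differences each way among members without overlap, the 10 most abundant members, 3 on each side of the minimum and, in the lists, up to 4 genes of smallest p. Other names were chosen after their values were seen. Names and sequences came from RefSeq (GRCh38.p14) and neighbours from GENCODE 29. Coordinates are left out because neither is on hg19. Summaries used Python 3.11.15 with pandas 2.3.3. Alternatives were a replicate block, leaving out each library, another pseudocount, other minimums, a fit without variance trend, and quantile or median-of-ratios scaling.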

Additional observations from a re-analysis of the deposited data

How the results depend on the processing

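Over all genes 27 were called, 0 with no minimum on FPKM, 106 with the replicate block and between 0 and 3603 when 1 library was left out. Of the members 0 were called, 1 (LINC00475) with the replicate block and between 0 and 24 when 1 library was left out. Members lower in both miRs libraries numbered 29, 19 with a minimum mean of 1 FPKM, which left 72 members, and between 38 and 49 when 1 library was left out. Members higher in both numbered 21, 14 with that minimum, and between 28 and 37 when 1 library was left out, where fewer libraries make separation easier. The median difference of the members ranged from −0.13 to −0.03 and that of the hosts from −0.26 to 0.15 in those fits. LINC00998 reversed with quantile normalization (−0.01). When 1 library was left out, differences of both signs were seen for LINC00657 (−0.81 to 0.11), LINC00998 (−0.09 to 0.14), MIR100HG (−0.62 to 0.02), MIR155HG (−0.45 to 0.81), MIR31HG (−0.30 to 0.76), MIR497HG (−0.68 to 0.38) and MIR762HG (−0.12 to 0.47). The sign turned with the miRs library left out for the first 6, with the control left out for MIR762HG, and with either for MIR31HG and MIR497HG. The causes were not tested. Pseudocount 0.1, rescaling and no variance trend changed no direction and no call of the 36 members named by the rule.

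Same-numbered libraries deviated together (Pearson's r = 0.199 over 12825 genes), but with 2 pairs the numbers are not shown to pair the libraries, and the block changed no other call among those 36. With depth unknown, the counting error of levels under 1 FPKM cannot be given.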
